A study of Gallus gallus with 18 samples.

Results

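The uterus of the laying hen, or shell gland, is the stretch of oviduct in which the egg is mineralised. Its epithelium and tubular glands move calcium and bicarbonate into the uterine fluid and secrete the proteins of the shell's organic matrix, and shell deposition runs through an initiation, a growth and a termination period. The 150 genes described here were the ones whose counts stood highest in the growth period against the other periods. They were taken from 17057 Ensembl genes with a median below 1000 CPM (a locus's counts scaled to its library's total), out of 20866 loci in the table. For each gene the smaller of the 2 growth means was set against the largest of the high initiation, low initiation and low termination means, each with 1 CPM added, and the log2 of that ratio was its score. The 150 highest scores were kept, so the genes were chosen by their CPM in 5 of the 6 groups. The high termination group had no part in the score. Its libraries entered only the median over all 18 libraries that was held below 1000 CPM.

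The hens were Hy-Line Brown, a commercial brown-egg layer, and their uterus RNA was sequenced at 42 weeks of age. The hens laid hard-shelled eggs (the high strength group) or weak-shelled eggs (the low strength group). The 18 libraries form 6 groups of 3, which are high initiation, low initiation, high growth, low growth, high termination and low termination. No group carries an allele, drug or other treatment in the labels. Whether every library is a different hen is not said there, so the spread between libraries may in part be technical.

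Libraries held between 13322102 and 16125109 counts. The files list Ensembl identifiers without gene names or coordinates, and the RefSeq gene table used here has 0 rows with an Ensembl identifier, so genes are called by identifier and no function is given for any of them. For the same reason no marker of the uterus or of another cell type could be looked up. Bulk counts cannot tell fewer cells of a type from less RNA per cell. High termination replicate 3 stood apart from replicates 1 and 2, so values of that group are given library by library. In that library 51.8% of the sequenced bases were G or C, against 49.3% and 50.01% in replicates 1 and 2, and 50.6% to 53.1% in low termination. The 10 most abundant loci took 24.8% of its counts, against 14.2% and 15.9% in the other two and 25.3% to 32.2% in low termination. The part of base composition and of these abundant loci in the results below was not tested.

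The label of a growth-period peak held for the 5 groups that entered the score and only in part for the group that did not. In growth the median of the 150 genes was 56.2, 43.6 and 52.1 CPM in the high strength libraries and 55.3, 53.6 and 48.5 CPM in the low strength libraries. At initiation it was 3.68, 5.59 and 4.999 CPM in the high and 5.84, 6.37 and 2.50 CPM in the low strength group. In low termination it was 5.72, 1.96 and 2.28 CPM. These values follow from the choice and carry no test. High termination replicate 1 had a median of 32.7 CPM, below every growth median, and replicate 2 had 47.0 CPM, within their range. Replicate 3 had 2.22 CPM, which lies among the low termination libraries. Over all 16110 genes tested, the library medians ranged only from 10.01 to 20.8 CPM.

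**Figure D1:**
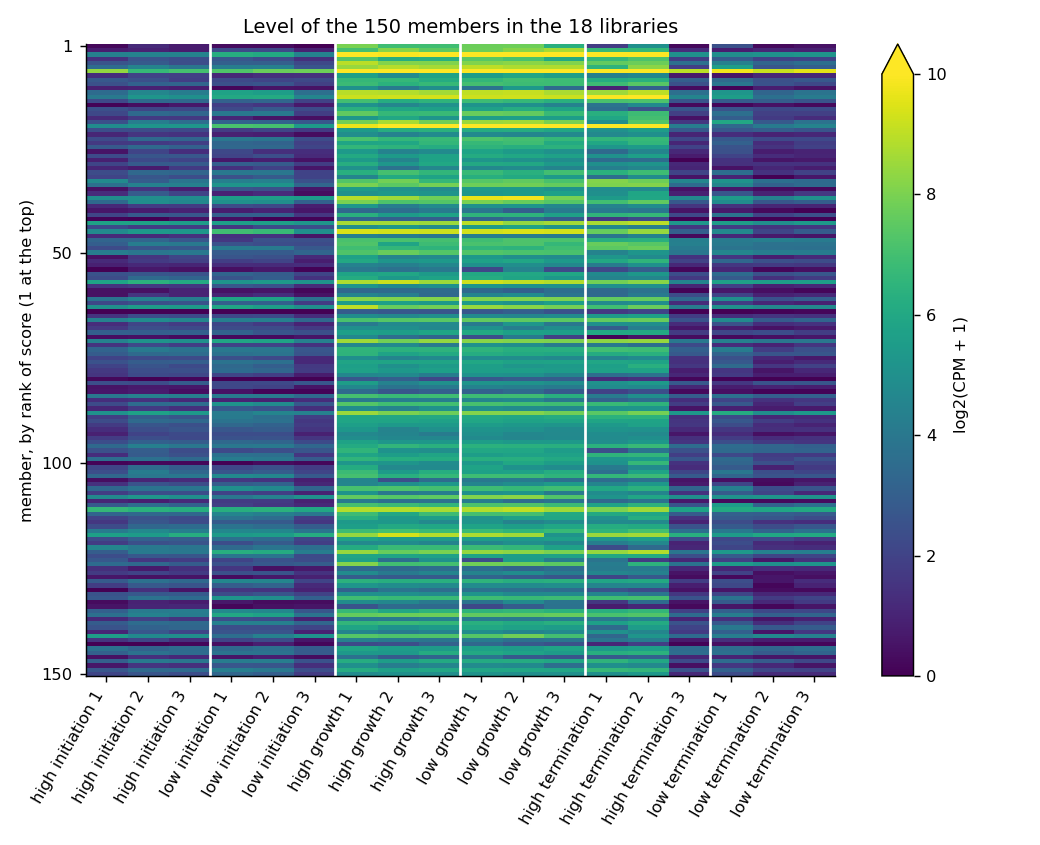
Level of the 150 genes (rows, by rank of score) in the 18 libraries (columns, 3 per group), as log2(CPM + 1), with white lines between groups. The 6 growth libraries and high termination replicates 1 and 2 are bright, and the other 10 libraries, high termination replicate 3 among them, are dark.

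The scores ran from 2.11 to 5.93 with a median of 2.56, so the least of the 150 still stood 4.33-fold above its highest low group on the scale with 1 CPM added. All 6 growth libraries were above all 9 libraries of the 3 low groups for 148 of the 150. The same libraries chose the genes, so this count is largely built in. Its share over all genes tested was not counted. The smaller growth mean was below 20 CPM for 24 genes, between 20 and 100 CPM for 82, between 100 and 1000 CPM for 41 and above 1000 CPM for 3. The highest low group was low initiation for 80 genes, high initiation for 36 and low termination for 34. The genes next to the threshold were alike on both sides. ENSGALG00000001253 and ENSGALG00000017101, the last inside, scored 2.11 and 2.11, with smaller growth means of 59.8 and 29.3 CPM. ENSGALG00000001933 and ENSGALG00000008815, the first outside, scored 2.11 and 2.11, with smaller growth means of 28.5 and 18.4 CPM.

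The gene with the highest score, ENSGALG00000006413, had 254, 118 and 122 CPM in high growth and 214, 218 and 79.3 CPM in low growth. It stood between 0 and 1.29 CPM in the 6 initiation libraries and at 4.56, 0.203 and 0.403 CPM in low termination. In high termination it had 2.45, 30.99 and 0.196 CPM, so all 3 libraries lay below every growth library. The second, ENSGALG00000028048, kept more of its level. It had 132, 289 and 183 CPM in high growth and 222, 287 and 404 CPM in low growth, then 106, 102 and 1.44 CPM in high termination. Its low termination libraries had 0.749, 1.08 and 0.873 CPM, and its initiation libraries between 0.714 and 3.80 CPM.

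A single gene supplied a large share of the counts. ENSGALG00000015914 had 11942, 13496 and 7782 CPM in high growth and 12362, 12256 and 11336 CPM in low growth. At initiation it had 330.4, 102 and 132 CPM in the high and 152, 208 and 220.1 CPM in the low strength group. In low termination it had 889.8, 569 and 771 CPM, above all 6 initiation libraries. In high termination it had 6250.4, 7683 and 498 CPM, so replicates 1 and 2 lay below every growth library and far above every library of the low groups. Together the 150 genes took 2.34% to 3.10% of all counts in growth, and this gene made up 33.2% to 46.1% of that. The 150 took 0.116% to 0.252% in the 9 libraries of the low groups. Their share was 1.97%, 2.39% and 0.139% in high termination replicates 1, 2 and 3. The next most abundant, ENSGALG00000001564, had 1816, 945 and 1147 CPM in high growth and 1301, 1487 and 1098 CPM in low growth. Its high termination libraries had 1171, 1488 and 32.4 CPM, so replicates 1 and 2 were within the growth range and replicate 3 was not.

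**Figure D2:**
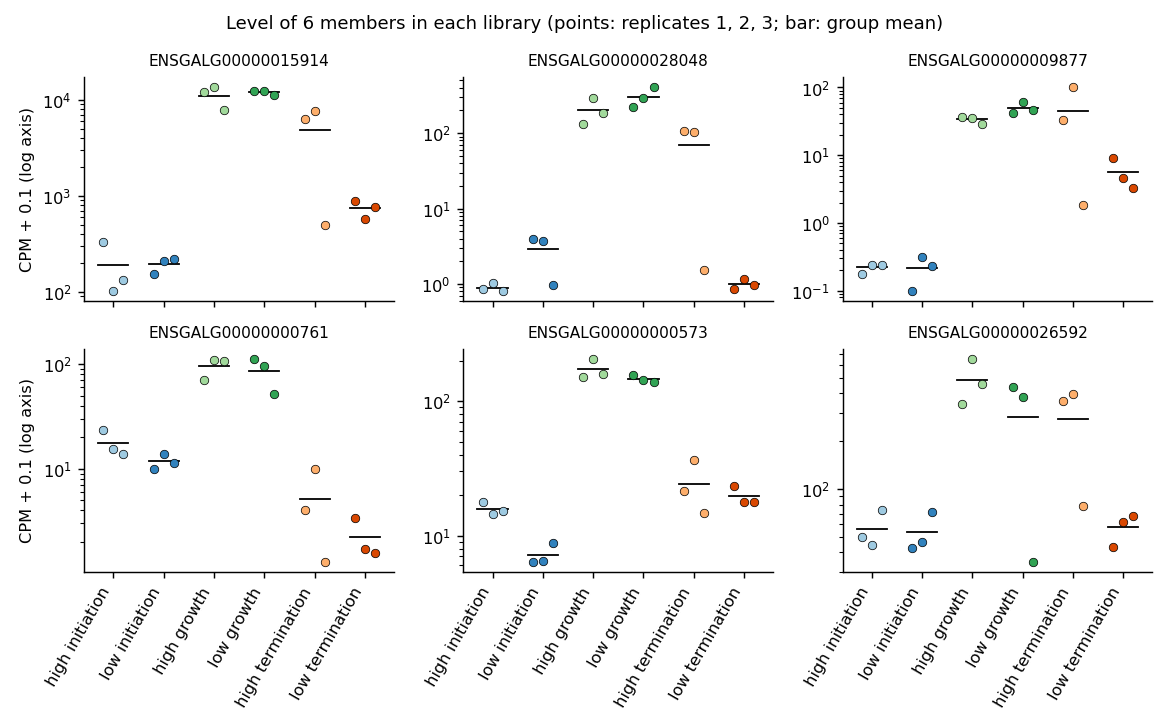
Level of 6 of the genes in every library, as CPM + 0.1 on a log axis, with points for replicates 1, 2 and 3 from left to right and a bar at the group mean. In the upper row high termination replicates 1 and 2 stay above every library of the initiation and low termination groups. In the lower row ENSGALG00000000761 and ENSGALG00000000573 are below growth in all 3 high termination libraries, and ENSGALG00000026592 has 1 low growth library at the level of initiation.

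The high termination group was the one place where the pattern could be read in libraries that had not entered the score. Each gene's level was placed on a scale of log2(CPM + 1) on which 0 is its highest low-group mean and 1 its smaller growth mean. The median gene stood at 0.89 in replicate 1, at 0.98 in replicate 2 and at −0.42 in replicate 3. Interquartile ranges ran from 0.63 to 1.05, from 0.78 to 1.13 and from −0.61 to −0.15. Within each of the other groups, library medians varied with an SD of 0.14, pooled over 5 groups. Replicate 3 was thus far from replicates 1 and 2, with no overlap of the interquartile ranges. The groups that chose the genes set this scale, so it has no test.

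**Figure D3:**
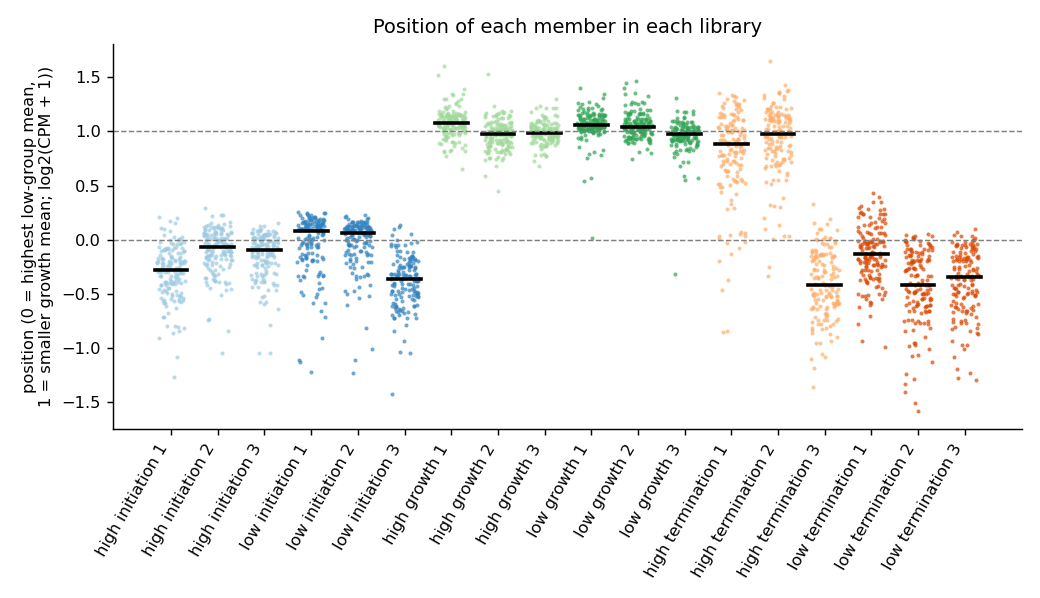
Position of each of the 150 genes (points) in each of the 18 libraries on the scale that sets 0 at the gene's highest low-group mean and 1 at its smaller growth mean, with a bar at the median. High termination replicates 1 and 2 spread from below 0 to above 1 with medians of 0.89 and 0.98, and replicate 3 has a median of −0.42.

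Replicates 1 and 2 lay below, within or above the growth range, depending on the gene. Growth chose the genes, so some fall below growth is built into these counts. For the next 150 genes by score the median positions were 1.01, 1.07 and −0.60 in high termination replicates 1, 2 and 3. In replicate 1, 24 genes lay above all 6 growth libraries, 47 within the growth range, 64 between the growth range and that of the 9 low-group libraries, and 15 within the low range or below it. In replicate 2 these counts were 38, 61, 46 and 5. Both replicates were within or above the growth range for 68 genes and above it for 20, while for 48 genes both were below it. Replicate 2 was above replicate 1 for 118 of the 150 genes, against 50.04% of all genes tested. Positions in these 2 libraries correlated across the 150 genes (Spearman's rho = 0.86), a description only, since both are scaled by the same growth and low-group means. In replicate 3, 146 genes were within or below the low range, 25 of these below it. For these counts against the growth and low ranges, the shares over all genes tested were not counted. Nothing is read from the counts as a trait of the 150 genes.

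Genes above growth included ENSGALG00000001253, with 102 CPM in the first and 94.0 CPM in the second high termination library against 51.7 to 71.5 CPM over the 6 growth libraries. ENSGALG00000004087 had 88.7 and 96.0 CPM in those replicates against 45.9 to 56.6 CPM in growth. Both were low in replicate 3, at 4.77 and 2.61 CPM. In replicate 2 the highest positions were those of ENSGALG00000009877 and ENSGALG00000026005. ENSGALG00000009877 reached 101 CPM in replicate 2, with 33.3 and 1.76 CPM in replicates 1 and 3, against 28.5 to 60.3 CPM in growth. It was nearly silent at initiation, with 0 to 0.213 CPM over 6 libraries, and had 8.99, 4.46 and 3.16 CPM in low termination. ENSGALG00000026005 had 59.0, 127 and 0.392 CPM in high termination and 36.4 to 63.2 CPM in growth.

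A smaller set was below growth in all 3 high termination libraries, though not always low. For 48 of the 150 genes (32%), every high termination library was below every growth library, as it was for 10.5% of all genes tested. Among the 48 is ENSGALG00000015914, far above the low groups in replicates 1 and 2, and of the 150 genes 3 were within or below the low range in both of those replicates. Growth chose the genes, so a return toward lower values is built into this count and nothing is read from the difference. In edgeR's quasi-likelihood test over all genes, 12 of the 150 were called lower in high termination than in high growth at a Benjamini-Hochberg adjusted p below 0.05, where 3.05% of all genes tested were called lower, and 0 were called higher, against 4.61%. In either direction DESeq2 called 19 of the 150 and 2146 of all genes, and limma-voom called 35, of which 1 was higher, and 2166. Without high termination replicate 2 the edgeR counts were 28 and 2185, against 12 and 1234 with it. The fit to the 6 high growth and high termination libraries alone called 0 of the 150 and 1 of all genes. All 12 were among the 48. Their log2 changes ran from −5.59 to −1.96. Without replicate 3 the count of genes called lower was again 12, of which 10 were the same genes, and 1 was called higher. That fit called 1194 of all genes in either direction. Their lower and higher shares were not counted, so nothing is read from these counts.

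**Figure D4:**
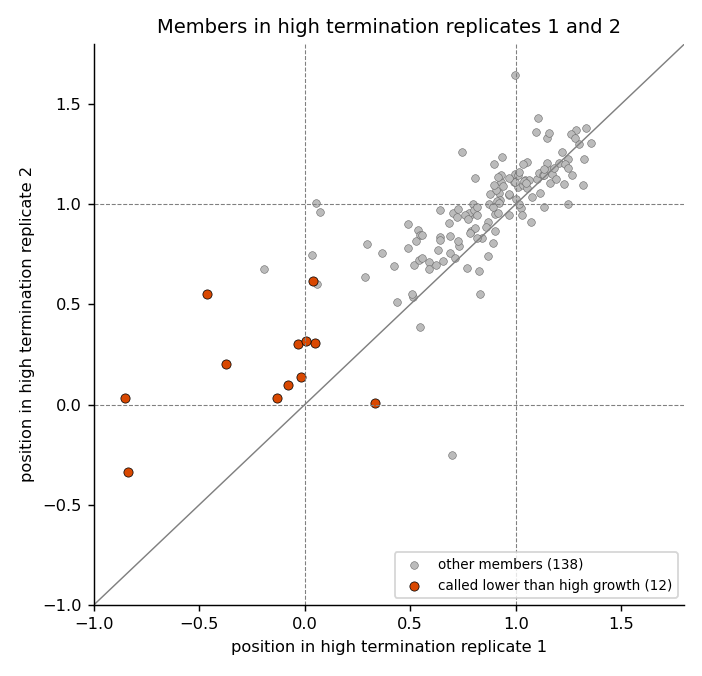
Position of the 150 genes in high termination replicate 1 (horizontal) and replicate 2 (vertical), with dashed lines at 0 and 1 and a diagonal of equal positions. Of the 150 genes, 46 lie above 1 in both replicates and 10 lie below 0.5 in both. The 12 genes called lower than in high growth lie at or below 0.33 in replicate 1 and at or below 0.62 in replicate 2.

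Among these 12 genes, ENSGALG00000000761 ended below its initiation level. It had 70.0, 109 and 107 CPM in high growth and 113, 96.3 and 52.2 CPM in low growth. It fell to 3.95, 9.85 and 1.18 CPM in high termination and 3.27, 1.62 and 1.48 CPM in low termination. Its initiation libraries had 9.91 to 23.2 CPM. In CPM all 6 termination libraries thus lay below all initiation libraries, the highest of them by a narrow margin. Before scaling, high termination replicate 2 had 157 counts and low initiation replicate 1 had 146, so this full separation rests on the scaling. Of the 150, this was the 1 gene called lower in high termination than in high initiation, where 8.45% of all genes tested were called lower. ENSGALG00000010268 had 166, 146 and 150.04 CPM in high growth and 165, 226 and 129 CPM in low growth, against 8.92, 35.8 and 10.3 CPM in high termination. ENSGALG00000020923 was close to undetected outside growth. It had 8.34 to 23.8 CPM in high growth and 2.69 to 15.0 CPM in low growth, and at most 0.537 CPM in any of the other 12 libraries.

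Other genes called lower also lay well below growth in all 3 high termination libraries. ENSGALG00000000573 had 152, 206 and 159 CPM in high growth and 157, 143 and 138.3 CPM in low growth. It had 21.5, 36.6 and 14.7 CPM in high termination and 23.1, 17.6 and 17.5 CPM in low termination, and these ranges overlap. ENSGALG00000025996 had 50.4 to 80.3 CPM over the 6 growth libraries. It had 11.2, 4.64 and 5.42 CPM in high termination and 4.97, 3.52 and 3.83 CPM in low termination. ENSGALG00000008039 varied more in growth, with 471, 371 and 221 CPM in the high and 805, 915 and 249 CPM in the low strength group. It had 43.0, 59.4 and 24.9 CPM in high termination. ENSGALG00000008039 was also named for its difference between the strength groups in growth, and the others were chosen after their values were seen. All 3 were taken from the genes called lower than in high growth. Their place below growth follows from that choice, and nothing is read from it.

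In high termination replicate 3 the highest positions belonged to ENSGALG00000006208, at 4.05 CPM, and ENSGALG00000026592, at 77.9 CPM. ENSGALG00000006208 had at most 3.00 CPM in the 9 low-group libraries and 9.60 and 15.999 CPM in the other high termination libraries. The lowest positions were those of ENSGALG00000000761 and ENSGALG00000007808. ENSGALG00000007808 had 603 to 694 CPM over the 6 growth libraries, then 201, 346 and 7.05 CPM in the 3 high termination libraries. Its low termination libraries had 24.9, 3.25 and 6.45 CPM, all below its 6 initiation libraries at 26.6 to 122 CPM. Before scaling, low termination replicate 1 had 366 counts and high initiation replicate 1 had 355, so this full separation rests on the scaling.

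Across the growth libraries the median fold range of the genes was near that of all genes tested, though the median gene tested stood lower. The highest growth library was 1.68-fold above the lowest for the median of the 150, and 1.65-fold for the median of all genes tested, and it was over 4-fold for 6 of the 150. ENSGALG00000026592 and ENSGALG00000015947 were the 2 whose growth and low ranges overlapped. ENSGALG00000026592 had 342, 657 and 454 CPM in high growth and 434, 379 and 34.6 CPM in low growth, so low growth replicate 3 lay below all 9 libraries of the low groups, which had 42.8 to 73.6 CPM. ENSGALG00000015947 had 51.1, 11.2 and 32.3 CPM in high growth and 4.03, 45.5 and 17.3 CPM in low growth, and low growth replicate 1 lay within the 0.541 to 5.70 CPM of the low groups.

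In each of the 6 groups the median spread of the 150 genes between libraries was above that of all genes tested. The median SD of log2(CPM + 1) within a group was 0.36 in high initiation, 0.58 in low initiation and 0.47 in low termination, against 0.19, 0.25 and 0.30 for all genes tested. In growth it was 0.30 in the high and 0.22 in the low strength group, against 0.24 and 0.19. With 0.1 CPM added in place of 1, these growth values were 0.31 and 0.22, against 0.28 and 0.22. In high termination it was 2.06 against 0.50. This SD depends on the level of a gene and on the CPM added. The 150 genes stood below the median gene tested at initiation and in low termination, and above it in growth. The part of level in these differences was not tested. Low initiation replicate 3 was the lowest of its group for 122 of the 150 genes (81.3%, against 60.6% of all genes tested). Low termination replicate 1 was the highest of its group for 123 (82.0%, against 62.8%). High growth replicate 1 was the highest for 96 (64.0%, against 25.7%). CPM from total counts runs low for most genes in libraries where a few loci take many counts, so the share among all genes tested stands beside each count.

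The design also asked whether hens laying hard and weak shells differ. In growth none of the 150 genes was called different between the strength groups by edgeR's quasi-likelihood test (0.00621% of all genes tested were called). The smallest adjusted p among the 150 was 1, and 1 gene had an unadjusted p below 0.05. The share of all genes tested with such an unadjusted p was not counted. DESeq2 and limma-voom called 0 of the 150 as well, and 11 and 5 of all genes. The median log2 difference, high minus low, was −0.07, against 0.00 for all genes tested, with a median standard error of 0.68. The spread of each gene was estimated over all 18 libraries, high termination among them. The standard errors and p-values therefore do not measure the spread between growth libraries alone. The fit to the 6 growth libraries alone called 0 of the 150 and 0 of all genes. The rule takes the smaller growth mean and so favours genes with similar levels in both groups.

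The largest differences toward low growth were in ENSGALG00000008039, with a log2 difference of −0.93 (standard error 0.40), and ENSGALG00000028048, at −0.64 (standard error 0.77). Toward high growth they were in ENSGALG00000020923, at 0.94 (standard error 0.61), and ENSGALG00000026592, at 0.70 (standard error 0.67). The libraries of the 2 strength groups overlapped for each of these genes, and single libraries moved each difference by over 1.5 times. For ENSGALG00000020923 it was 0.28 without high growth replicate 1 and 2.02 without low growth replicate 2. For ENSGALG00000026592 it was 0.18 without low growth replicate 3 and 1.15 without low growth replicate 1. For ENSGALG00000008039 it ran from −1.33 without low growth replicate 3 to −0.60 without low growth replicate 2. For ENSGALG00000028048 it ran from −0.95 without high growth replicate 2 to −0.42 without low growth replicate 3. The CPM ranges of high and low growth did not overlap for 7 of the 150 genes (4.67%, against 8.02% of all genes tested).

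At initiation 1 of the 150 was called between the strength groups, against 7.97% of all genes tested. This gene, ENSGALG00000000573, had 17.8, 14.3 and 15.2 CPM in high initiation and 6.24, 6.33 and 8.66 CPM in low initiation, with no overlap. Its log2 difference was 1.21 with a standard error of 0.25. The count was 0 without low initiation replicate 1 and without replicate 2, when 456 and 558 of all genes were still called. DESeq2 called 4 of the 150 and 2076 of all genes, limma-voom 67 and 9900, and the fit to the 6 initiation libraries 9 and 2181. Both initiation groups entered the rule through the larger of their means, and nothing is read from these counts.

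At termination 117 of the 150 were called higher in the high strength group and 0 lower, against 12.2% and 1.92% of all genes tested. The choice of genes low in low termination favours this direction, and the count depended on which library was left out. With all libraries DESeq2 called 131 of the 150 and 3861 of all genes in either direction, and limma-voom 137 and 11259. In edgeR without high termination replicate 3, 138 of the 150 and 9224 of all genes were called. Without low termination replicate 1 these counts were 120 and 3608. No gene was called (0 of 150) when high termination replicate 1 or replicate 2 was dropped. The count was also 0 without low termination replicate 2 or replicate 3, and 0 in the fit to the 6 termination libraries alone. Nearly all calls of the whole table went with them: 2 and 15 genes were called without high termination replicates 1 and 2, 2 and 2 without low termination replicates 2 and 3, and 0 in the fit to the 6 libraries, against 2280 with all libraries. The CPM ranges of the groups did not overlap for 15 of the 150, against 11.4% of all genes tested, and replicate 3 lay among the low termination libraries. Against high initiation, which also entered the rule, 124 were called higher in high termination (13.8% of all genes tested). That comparison called 125 in either direction (22.3% of all genes tested), 1 of them lower. It called 75 without high initiation replicate 1, 83 without high initiation replicate 3 and 77 without high termination replicate 2, when 2071, 1995 and 2156 of all genes were called, against 3586 with all libraries. The fit to the 6 libraries compared called 3 of the 150 and 459 of all genes. With all libraries DESeq2 called 133 of the 150 and 4774 of all genes, and limma-voom 142 and 10204.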

How the data were processed

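The authors deposited counts per locus for 18 libraries and a table of read statistics with read counts and percent of bases by quality and GC, of which mate 1 was used. Total RNA went into Illumina TruSeq libraries, per the labels' protocols. Bowtie2, TopHat, TopHat2 and the build galGal4 are named, per the submitters' processing notes. For the counting tool, its strandedness and the annotation, no version or setting is given in the sources used here, and values of antisense or overlapping genes and of paralogs are therefore uncertain. The deposited table bears the word normalized in its name. However, 0 of its values are fractional, no whole number from 0 to 15 is missing in a library, and library totals rise with clean read pairs (Pearson's r = 0.950 across the 18, a check of the unit), so its values were taken as counts. Its rows all name a locus.

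CPM used column sums over all rows. 3 counts, the floor for a gene at 0, are 0.186 to 0.225 CPM, a limit from counting error only. Libraries of the same group differed beyond counting noise (chi-square per degree of freedom 9.00 to 335), so none was counted as another library sequenced again. This measure cannot tell different hens from separate preparations of the same hen. Loci above 1 CPM in at least 3 libraries were tested, 16110 in all. All 150 genes passed this filter through the growth group, where they are high. The quasi-likelihood test of edgeR 4.0.16 was fitted to the counts with TMM factors (with limma 3.58.1 in R 4.3.3), as a mean for each group over 18 libraries, p-values two-sided and adjusted over all loci within a comparison. Standard errors are the log2 change over the square root of F. In the fits to 18 libraries they rest on the spread of a gene over all 18. The test was run on simulated data first. In that run no library stood apart from its group as high termination replicate 3 does, so it does not bear on the high termination comparisons. DESeq2 1.42.0, Python 3.11.15, pandas 2.3.3 and numpy 2.4.6 were also used.

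The genes and lists were chosen with earlier results of these data known. Genes were to be named as those of highest score, growth level, high or low position in each high termination library, difference in growth and nearness to the threshold, plus members of lists fixed by symbol. Identifiers could not be paired with symbols, so lists and cell type markers were not used, and each part was shortened to at most 2 identifiers a direction, a change made when values could be seen.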

Additional observations from a re-analysis of the deposited data

How the results depend on the processing

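The 150 genes were chosen again in part under other settings: 131 with TMM scaling, 121 and 118 with 0.1 and 5 CPM added, 126 with group medians, 149 without the cap on abundance, 132 among all rows and 132 to 146 without 1 library. With high termination added to the low groups 51 were chosen again. Median positions without 1 library ranged from 0.87 to 0.90, 0.96 to 1.04 and −0.50 to −0.33 in high termination replicates 1, 2 and 3. With TMM scaling they were 0.91, 1.01 and −0.30. With 0.1 CPM added they were 0.89, 0.98 and −0.53, and with 5 CPM added 0.87, 0.98 and −0.28. Without 1 library the genes called of the 150 numbered 0 to 0 between strength groups in growth, 0 to 1 at initiation and 0 to 138 at termination. Over all genes these ranges were 0 to 1, 456 to 1193 and 2 to 9224. For high termination the calls among the 150 numbered 10 to 28 against high growth and 75 to 142 against high initiation. Over all genes they numbered 709 to 2185 and 1995 to 8336. DESeq2 called 4 at initiation, 131 at termination, 19 against high growth and 133 against high initiation. In the same order limma-voom with library weights called 67, 137, 35 and 142. Fits to the 6 libraries compared called 0 in growth, 9 at initiation, 0 at termination, 0 against high growth and 3 against high initiation. These fits have fewer samples, and each takes the spread of a gene from its own 6 libraries only. The part of either in these counts was not tested. With the replicate block the counts were 0 in growth, 1 at initiation, 108 at termination, 15 against high growth and 108 against high initiation. Over all genes the same fits called 0, 1262, 2023, 1119 and 3268. In the labels, same-numbered libraries share only a number. Their deviations from group means correlated at −0.37 to 0.55. With 3 libraries in a group these deviations depend on each other, so they cannot tell whether same-numbered libraries are paired. Scaling by total counts put the median of all genes tested, as a log2 change, at 0.26 for high minus low at termination, −0.15 for high termination minus high initiation and −0.12 minus high growth, and the counts were 124, 107 and 12. With that scaling 3279, 3640 and 1135 of all genes were called. Causes were not tested beyond this. With TMM scaling the median within-group SD was 0.31 in high and 0.50 in low initiation, and 0.32 in high and 0.24 in low growth. In high and low termination it was 1.95 and 0.40. With 0.1 CPM added these values were 0.47, 0.84, 0.31, 0.22, 2.41 and 0.63 in the same order.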
